A study of Mus musculus with 6 samples.

Results

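Peg10, Peg3, Nnat and Mirg are imprinted genes, expressed mainly from a single parental allele. All sites annotated to any of the 4 symbols were taken, which gave 14 of the 5538 listed RNA G-quadruplex (rG4) sites, 3 in Peg10, 5 in Peg3, 4 in Nnat and 2 in Mirg. The samples came from a clonal TsixTST/+ mouse embryonic stem cell line of a 129S1/CastEiJ x 129S1 cross, with genotype labelled WT and treatment labelled None, so every group carried the TsixTST allele and 1 clone stands for all. Cells were grown on inactivated feeders with leukemia inhibitory factor (day 0), or differentiated as embryoid bodies after feeder depletion and without the factor, in suspension to day 3 and attached to day 7. There were 2 samples a day, each with a K+ and a Li+ library from chromatin-bound polyadenylated RNA of cells treated with dimethyl sulfate (DMS), and each day 7 sample has a second pair of libraries named in vitro, a preparation that the labels do not describe. Nothing in the labels says that the 2 samples of a day came from separate cultures. The limma p-values reflect only how these samples vary, which may be technical, and those of Fisher's exact test only counting error within a sample.

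An rG4 is a stack of guanine tetrads that an RNA strand forms from runs of guanines. K+ stabilises the fold and Li+ does not, and a folded motif stops reverse transcriptase at its 3′ edge. DMS methylates guanines that are free in an unfolded motif, which then cannot fold when K+ is added. A higher stop share (stops divided by the reads covering the site) in K+ than in Li+ is therefore read as protection of the motif in the cell.

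Peg10 is a paternally expressed gene derived from a retrotransposon and is needed for the mouse placenta. Peg3 is a paternally expressed gene of a zinc finger protein. Nnat is a paternally expressed gene of a small membrane protein of the nervous system and lies within the span of Blcap. Mirg is a maternally expressed noncoding RNA of the Dlk1-Dio3 region that hosts microRNAs, and 10 RefSeq hairpins lie within its annotated span.

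The sites are lettered from 5′ to 3′ along each RNA, with coordinates on GRCm38 (mm10). The sequences on which the results turn follow as the RNA strand in DNA letters, from 5′ to 3′, with runs of 2 or more G in capitals. Motifs longer than 30 bases are shown by their last 30, the end at which the enzyme stops. Peg10 sites A (chr6:4759599-4759658), B (chr6:4759622-4759681) and C (chr6:4759646-4759684) overlap in the 3′ untranslated region on the plus strand, so they share reads and are not independent.
Peg10 site A: ataatcataagtattttGGGctGGGaGGGa
Peg10 site B: GGaGGGattgttaagtaatcttaGGtGGGt
Peg10 site C: GGGattgttaagtaatcttaGGtGGGtGGG
Peg3 lies on the minus strand. Its site A (chr7:6722106-6722126) is a canonical motif in a noncoding part, sites D (chr7:6704461-6704520) and E (chr7:6704185-6704208) lie in the 3′ untranslated region, and the end of site D holds a run of 10 G.
Peg3 site A: GGGGaGGGtGGGtccttaGGG
Peg3 site D: ttaaaaatagtgtttttttGGGGGGGGGGt
Peg3 site E: GGaatGGcaGGGcagttgtGGcGG
Nnat sites A (chr2:157561862-157561880) and B (chr2:157561862-157561888) start at the same base of the 3′ untranslated region on the plus strand and differ by 1 more G-run at the 3′ end of site B. Mirg site B (chr12:109749356-109749384, plus strand) lies 74 bases from the annotated 3′ end.
Nnat site A: GGGtGGGagaGGaGGGGGG
Nnat site B: GGGtGGGagaGGaGGGGGGaagaGGGG
Mirg site B: GGGGactgagcaGGGaGGGGaaGGaGGGG
The other 5 sites are Peg3 sites B (chr7:6711070-6711129, coding sequence and 3′ untranslated region) and C (chr7:6705576-6705596, 3′ untranslated region), Nnat sites C (chr2:157562081-157562101) and D (chr2:157562081-157562117), again with 1 start, and Mirg site A (chr12:109740661-109740690), 84 bases from the hairpin of Mir377. Between 28.3% and 78.9% of the bases of the 14 motifs are G, lowest in Peg10 site A and highest in Nnat site A.

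Listed coverage per library in cells ran from 413278 to 4212056 reads, of which 9 sites in ribosomal or mitochondrial RNA took 63.52% to 83.77%, and the other sites held 87479 to 1536568 reads. A coverage of 1 to 5 reads is not listed, so 0 stands for at most 5 reads. Of the embryonic stem cell markers, 5 of 11 were in the tables, and 3 of the 5 fell on day 7 against day 0 and against day 3 (background 3.14% and 1.88% lower). Tdgf1 and Lin28a did not pass, with log2 changes of -1.05 and 0.80 on day 7 against day 0. The summed reads of the 5 markers were 2950 and 2920 CPM on day 0, 3240 and 3550 at day 3, then 1280 and 1460 on day 7. Over the same days the 4 neural markers in the tables (of 8) summed to 81.1 and 222, 47.9 and 33.7, and 437 and 400 CPM. Dbn1 and Sox11 were at 0 on day 0 and rose, Nes did not pass (adjusted p = 0.103), and the entry of Tubb3 and Galnt2l had 27.4 ± 13.8 CPM on day 7 and 138 ± 80.1 CPM on day 0 (SD, n = 2 each; adjusted p = 0.0543). The 3 endoderm and epithelium markers (of 7) summed to 60.8 and 67.5, 91.4 and 71.3, and 773 and 672 CPM, with Krt8 and Krt18 at 0 on day 0 and Epcam at a log2 change of 0.02 on day 7 against day 0. The 2 feeder and mesenchyme markers (of 12) summed to 164 and 59.5, 210 and 111, and 216 and 234 CPM, with Col1a1 at 0 on day 0, and none of the 5 trophoblast markers was in the tables. Dbn1, Sox11, Nes, Krt8, Krt18 and Col1a1 met the filter on low counts only with the day 7 libraries. Their differences from day 0 were in part set by that filter and are a description. Of the markers that met the filter without day 7, Esrrb, Pou5f1 and the entry of Sox2 and Sox2ot were lower on day 7 than on day 0. The others did not pass in that comparison. The part of cell makeup in the results was not tested. In such bulk samples fewer cells of a type and less RNA per cell cannot be told apart.

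The first comparison asked how much RNA lay over the sites on each day, from reads of both cations at the most covered site of each gene. Peg10 and Peg3 rose by day 7, and Mirg did not pass the test. Nnat was also higher on day 7, but it met the filter on low counts only with the day 7 libraries, so its difference is a description. On day 0, 6 of the 14 sites had no listed read in replicate 1 and 8 in replicate 2, while on day 7 none was at 0 in replicate 1 and 1 site, Mirg site A, in replicate 2. How the sites were chosen is not stated. K+ exceeds Li+ at all 5538 of them in the in vitro libraries of day 7, and whether the choice favoured RNAs of day 7 was not tested.

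Peg10 site A had 624 and 93 reads on day 0, 1025 and 421 at day 3, then 17499 and 3464 on day 7. After scaling these were 436 and 185 CPM (reads per library after scaling), 1120 and 834, and 4650 and 2550, and the 3 days did not overlap. Among 2639 gene entries outside ribosomal and mitochondrial RNA, ordered by reads over 1 site, Peg10 stood at places 126 and 405 on day 0, 34 and 49 at day 3, then 4 and 11 on day 7. Day 7 was higher than day 0 by 3.53 ± 0.46 (log2, SE), with 3600 ± 1490 CPM against 310 ± 178 CPM (SD, n = 2 each; limma adjusted p = 0.00295).

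Peg3 site E had 140 and 14 reads on day 0, 169 and 143 at day 3, then 6491 and 1702 on day 7. The scaled values were 97.9 and 27.8 CPM, 184 and 283 CPM, and 1720 and 1250 CPM, again without overlap of the days. Day 7 was higher than day 0 by 4.14 ± 0.50, with 1490 ± 335 CPM against 62.8 ± 49.6 CPM (log2, SE; SD, n = 2 each; limma adjusted p = 0.00239). Peg3 was the gene of the 4 that kept its call on day 7 against day 0 with any 1 library left out.

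Nnat site B was listed at 0 in both day 0 samples and in day 3 replicate 1, had 6 reads in day 3 replicate 2, and had 608 and 189 reads on day 7. Its scaled reads were 161 and 139 CPM on day 7, which was at least 11.2-fold higher than a floor of 10 reads per library at day 0 (limma adjusted p = 0.00272). Nnat met the filter on low counts only with the day 7 libraries, so a difference was built into its entry. With no filter on 2633 entries its adjusted p was 0.00174. Few reads of Nnat were listed before day 7 at this depth. The other listed reads of day 0 were 9 and 26 in K+ at sites A and C of replicate 1. Day 3 replicate 1 had 8 in Li+ at site A. The gap was smaller at site C, with 90 and 89 K+ reads on day 7 against the 26 of day 0 replicate 1. These K+ libraries held 831346, 440638 and 479785 reads outside ribosomal and mitochondrial RNA.

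Mirg site B had 157 and 112 reads on day 0, 213 and 89 at day 3, then 821 and 341 on day 7. The scaled values, 110 and 222 CPM, 232 and 176 CPM, and 218 and 251 CPM, overlapped between all days. The difference of day 7 from day 0 was 0.68 (log2, 95% interval -0.18 to 1.54; limma adjusted p = 0.202). Mirg site A was at 0 on days 0 and 3 and had 18 reads in day 7 replicate 1.

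Of the 3 genes that met the filter without day 7, Peg10 and Peg3 were higher on day 7 than on day 0 and Mirg was not called. With Nnat 3 of 4 were higher, against a background of 15.2% of 2389 gene entries, and 0 were lower (background 3.14%). Both day 7 samples lay above both day 0 samples in these 3 genes, as in 41.2% of all entries. The median over all entries was 0.57 on the log2 scale, so that Peg10 lay 2.96 and Peg3 3.57 above it, and Mirg 0.11. Leaving out day 7 replicate 1 gave an adjusted p of 0.0727 for Peg10 (log2 change 3.04) and 0.165 for Nnat. Leaving out day 7 replicate 2 gave 0.0288 for Peg10 (3.9) and 0.067 for Nnat. Over all alternatives the adjusted p ran from 0.00141 to 0.0727 for Peg10, from 0.00138 to 0.0374 for Peg3 and from 0.000815 to 0.165 for Nnat.

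**Figure D1:**
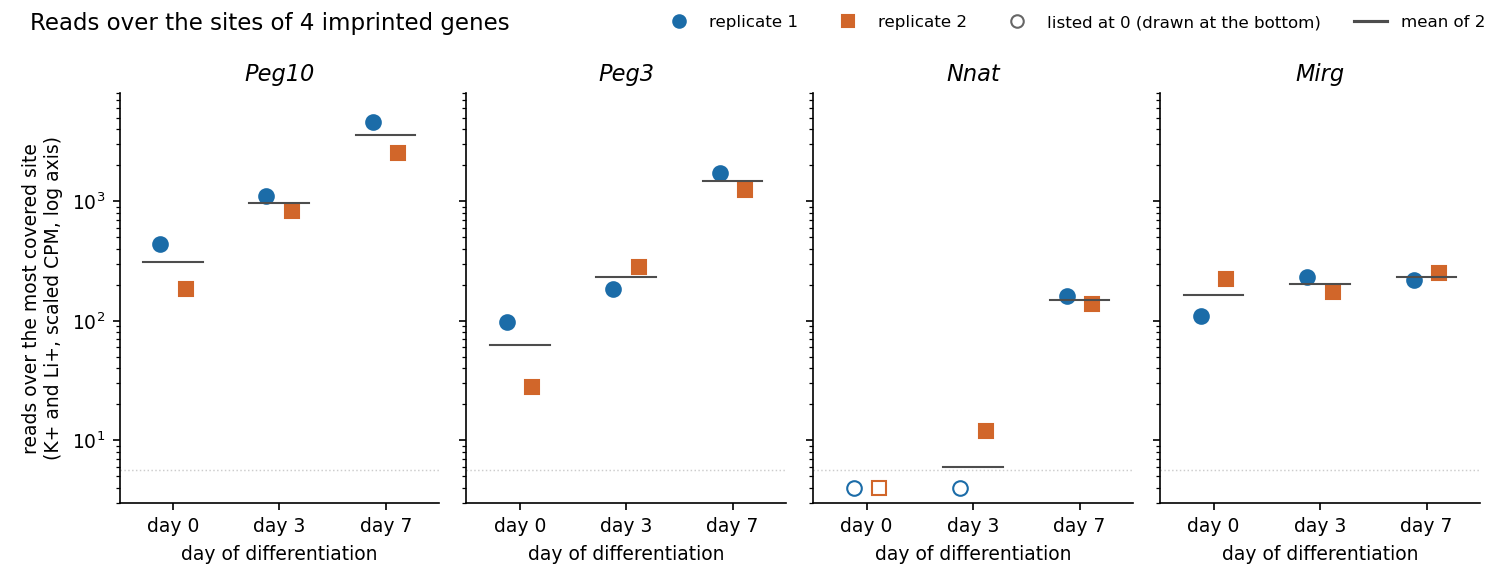
Reads of both cations over the most covered site of each gene, in scaled CPM on a log axis, by day, with 1 point per sample and a bar for the mean of 2. Peg10 and Peg3 are higher on each later day, Nnat lies at 161 and 139 CPM on day 7 with open points for samples listed at 0, and the days of Mirg overlap.

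Day 3 in suspension was then compared with day 0, and attached day 7 with day 3. From day 0 to day 3 culture form changed together with feeders, leukemia inhibitory factor and time, and from day 3 to day 7 together with time. Their parts cannot be told apart. On day 3 none of the 4 genes passed against day 0 (background 0.0837% higher), although Peg10 was 1.70 ± 0.47 higher (log2, SE; limma adjusted p = 0.366) and Peg3 1.43 ± 0.52 higher (0.507), each with no overlap between the days, as at 15.4% of all entries. At an unadjusted p under 0.05 these 2 of the 4 genes and 205 of 2389 entries were counted. Without day 0 replicate 1 Peg10 passed (adjusted p = 0.0313). From the day 3 level, day 7 was higher by 1.83 ± 0.45 in Peg10 (limma adjusted p = 0.0349), 2.71 ± 0.37 in Peg3 (0.00493) and 5.43 ± 1.10 in Nnat (0.0151). The background was 10.8% higher and 1.88% lower, and Mirg differed by 0.18 (interval -0.67 to 1.03). Of the 3 higher genes, Nnat met the filter on low counts only with the day 7 libraries, so its call is a description. None of the 3 passed without day 3 replicate 2 or without day 7 replicate 1, and Peg3 alone passed without day 3 replicate 1 (adjusted p = 0.0362) or without day 7 replicate 2 (0.0415). The sizes moved less, with log2 changes of 1.34 to 2.21 for Peg10 and 2.37 to 3.02 for Peg3 over all alternatives, while Nnat ran from 3.55 to 8.03. Nnat also missed the threshold with reads summed over its sites (adjusted p = 0.0516).

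A fixed list of 54 other imprinted genes gave the setting, of which 14 were in the tables and 11 could be tested. Of these 11, 7 were higher on day 7 than on day 0 and 0 were lower, with a median of 1.87 on the log2 scale against 0.57 over all entries, and 4 were higher on day 7 than on day 3. Over all entries 15.2% and 10.8% were higher in these comparisons. Copg2, Cd81, Tssc4 and Nap1l4 did not pass on day 7 against day 0, with log2 changes of -0.69, -0.52, -0.35 and 0.18. Of the 11, Zdbf2 and Peg12 met the filter only with the day 7 libraries, so their calls give no support. The list was drawn up with earlier results of these data known, so its direction is no independent evidence. H19, the maternally expressed noncoding RNA of the Igf2 locus, had 44 and 0 reads on day 0, 366 and 136 at day 3, then 25662 and 3827 on day 7 (limma adjusted p = 0.00585 for day 7 against day 0). Zdbf2, a paternally expressed zinc finger gene, was at 0 in all 4 samples of days 0 and 3 and had 195 and 53 reads on day 7 (at least 3.38 times the floor of day 0; adjusted p = 0.00174). Peg12, a paternally expressed gene of the Prader-Willi region, was at 0 likewise and had 55 and 15 reads on day 7 (adjusted p = 0.00732), with a mean below the floor of day 0. Gnas, the gene of a G protein subunit, was higher by 2.01 ± 0.39 (adjusted p = 0.0128), and Mest, a paternally expressed gene of a hydrolase-like protein, by 1.87 ± 0.48 (0.0341; log2, SE). Igf2r, the maternally expressed receptor that clears Igf2, was higher by 3.63 ± 0.99 (0.0411) with 15 and 0 reads on day 0 and 82 and 54 on day 7. The entry shared by Snrpn and Gm38393 was higher by 1.19 ± 0.34 (0.0464). Usp29, the neighbour of Peg3, was at 0 on days 0 and 3, had 32 and 6 reads on day 7 and did not enter the test.

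The genes most like each member were taken by Pearson's r of log2 CPM over the 6 samples in cells among 2385 other entries, as a description. For Peg10 they were Flnc (0.984), Ctnnd1 (0.982) and H19 (0.982), and for Peg3 Flnc (0.993), Lsr (0.990) and Wnk1 (0.985). For Nnat they were Dusp4 (0.986), Pip5k1a (0.981) and Arhgap29 (0.980), and for Mirg Ergic1 (0.985), Mepce (0.945) and Lrp5 (0.927). Between members r was 0.980 for Peg10 and Peg3, 0.919 for Peg3 and Nnat and 0.849 for Peg10 and Nnat, while Mirg had 0.343 to 0.418 with the other 3. All genes share the same 6 samples and their depth.

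K+ stops were then compared between days, which asks how often the enzyme stopped at each motif with no correction for the amount of RNA or for Li+ stops. Sites of Peg10 and Peg3 had more K+ stops on day 7, but the filter on low counts could select for this. The filter on low counts left 6 of the 14 sites, all 3 of Peg10, sites D and E of Peg3 and site B of Mirg. No Nnat site was tested. Mirg site B met the filter without the day 7 libraries. Peg10 sites A, B and C and Peg3 sites D and E did not, like 112 of the 327 sites tested, so their differences from the other days were in part set by the filter and their calls below are a description.

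Peg10 site C, the most stopped, had 7 and 1 stops on day 0, 18 and 5 at day 3, then 363 and 72 on day 7. In scaled counts day 7 was higher than day 0 by 3.78 ± 0.79 (log2, SE), with 547 ± 219 CPM against 29.3 ± 14.3 CPM (SD, n = 2 each; limma-voom adjusted p = 0.0117). Peg10 site A had 6 and 1, 11 and 3, and 194 and 36 stops over the days, and site B had 4 and 0, 2 and 3, and 77 and 24. They were higher on day 7 than on day 0 by 3.01 ± 0.74 (adjusted p = 0.0249) and 3.19 ± 0.62 (0.00772). At all 3 sites both day 7 samples lay above both day 0 samples, as at 34.9% of the 327 sites.

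Peg3 site E had 1 and 0 stops on day 0, 1 and 3 at day 3, then 94 and 40 on day 7. The pooled ratio of day 7 to day 0 was 43.9, with a 95% counting interval of 7.74 to 1750 (limma-voom adjusted p = 0.00146). Peg3 site D had no K+ stop on day 0 or day 3, with 39 K+ reads in day 0 replicate 1 and 19 and 54 on day 3, and reached 72 and 15 stops by day 7, which was at least 1.78-fold higher than a floor of 5 stops per library at day 0 (adjusted p = 0.00225).

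Mirg site B had 1 and 2 stops on day 0, 6 and 6 at day 3, then 35 and 11 on day 7. The scaled values were 5.63 and 38.4 CPM, 71.9 and 63.2 CPM, and 67.7 and 59.8 CPM, so that days 3 and 7 lay above day 0, as at 28.7% and 34.9% of the 327 sites, and overlapped each other. It did not pass, with a pooled ratio of day 7 to day 0 of 5.02 (counting interval 1.61 to 25.2; limma-voom adjusted p = 0.15).

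On day 7 against day 0, 5 of the 6 sites tested were called higher, against a background of 10.1% of 327 sites (6.12% lower), and all 5 needed day 7 to meet the filter. In a fit with no filter, which took in all 14 member sites among 5037, 7 were called higher, as were 132 of all sites, with an adjusted p of 0.00108, 0.000353 and 1.82e-05 at Peg10 sites A, B and C and of 7.45e-08 at Peg3 site E. With a sample left out, the filter also left fewer sites. Without day 0 replicate 1, 3 of 4 tested were called. Without day 0 replicate 2, 3 of 6 were called, Mirg site B (adjusted p = 0.0163) and both Peg3 sites. Without day 7 replicate 1, 1 of 2 was called, and without day 7 replicate 2, 2 of 2. Peg10 sites A, B and C had log2 changes of 2.78, 2.41 and 3.42 without day 0 replicate 2 (adjusted p = 0.258, 0.131 and 0.175). On day 3 against day 0 none of the 6 passed (background 0.612%; 0 of the 6 and 45 of 327 at an unadjusted p under 0.05). On day 7 against day 3, 2 of the 6 passed (background 5.2% higher, 0.917% lower), Peg3 site E by 2.96 ± 0.59 (log2, SE; adjusted p = 0.0167) and site D by at least 1.96-fold (0.00512). Peg10 sites A, B and C differed there by 1.96 ± 0.70, 2.10 ± 0.62 and 2.15 ± 0.64 (adjusted p = 0.144, 0.0757 and 0.0777). Both called sites met the filter through day 7. The count depended on the scaling: with scaling over all sites, which was run first, 5 of the 6 passed on day 7 against day 3, and all 6 on day 7 against day 0.

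**Figure D2:**
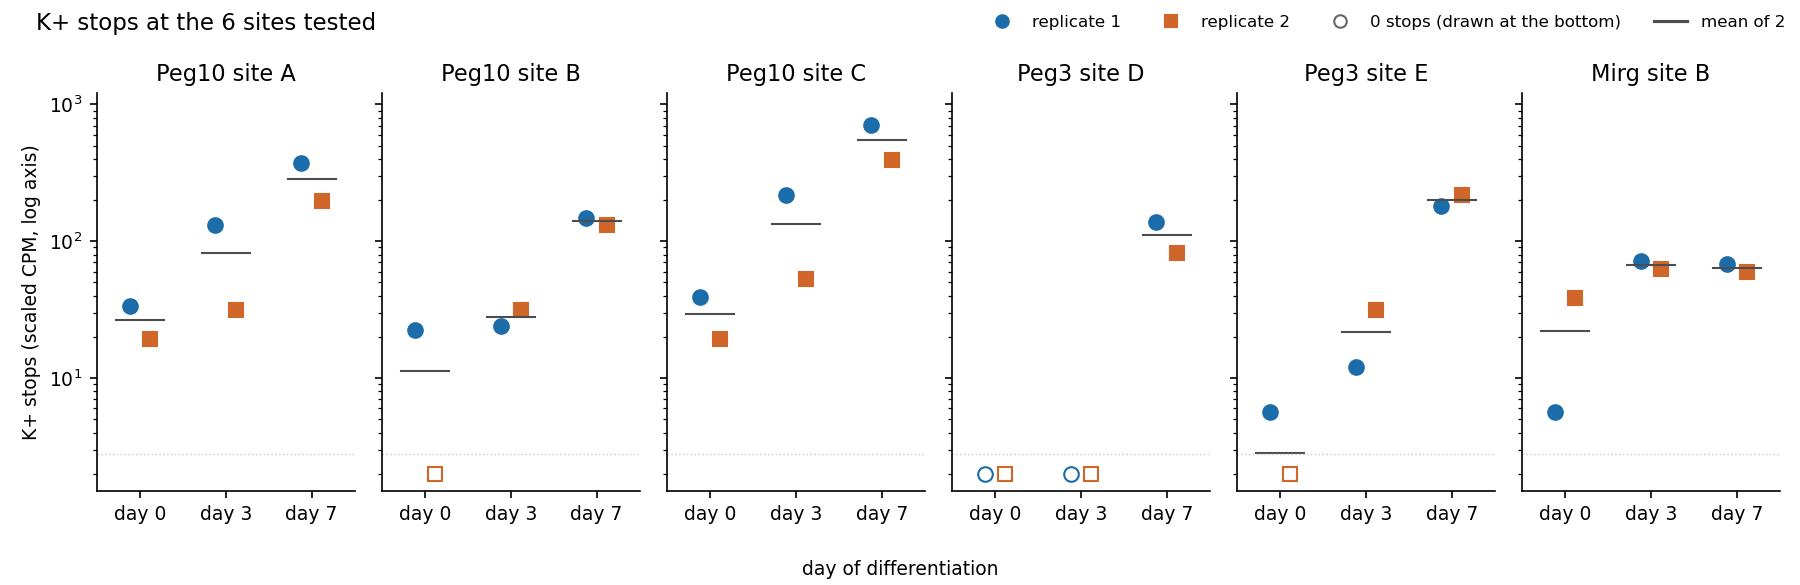
K+ stops in scaled CPM on a log axis at the 6 sites tested, by day, with 1 point per sample and a bar for the mean of 2. Both day 7 samples lie above both day 0 samples at each site, and at Mirg site B days 3 and 7 overlap.

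The K+ stop share sets the stops against the reads over the same site. It was compared between day 7 and day 0 at the sites with 20 K+ reads in every sample, Peg10 sites A to C and Mirg site B, and none of the 4 passed (background 0.105% of 954 sites higher; 1 of the 4 and 162 of 954 at an unadjusted p under 0.05). At Peg10 site C the share was 2.46% and 2.86% on day 0, 12.5% and 2.17% at day 3, then 7.38% and 4.66% on day 7. Both day 7 samples lay above both day 0 samples there, an order not counted over all sites, and the day 3 samples spanned them. The odds on day 7 were 2.09 times those on day 0 (95% interval 0.621 to 7.00). At site A they were 1.41 times (0.289 to 6.91) and at site B 1.09 times (0.178 to 6.69). These intervals are wide and do not show that the share stayed the same. The median change over all 954 sites was 0.59 on the log2 scale. Relative to it, Peg10 sites A, B and C lay at -0.09, -0.46 and 0.47.

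Mirg site B had a K+ share of 1.30% and 3.45% on day 0, 12% and 8.82% at day 3, then 11.1% and 6.32% on day 7. Both later days lay above day 0 in each sample, an order not counted over all sites. The change from day 0 to day 7 lay 1.19 above the median of all 954 sites on the log2 scale. The odds on day 7 were 3.43 times those on day 0 (1.33 to 8.89; limma adjusted p = 0.164; over the alternatives 0.105 to 0.851), which did not pass. The Li+ share of the same site was 5.00% and 11.1% on day 0, 1.84% and 0% of 21 reads (exact 95% interval up to 16.1%) at day 3, then 6.52% and 9.58% on day 7.

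Whether the motifs were protected in the cells was asked from K+ against Li+ within day 7. No member site differed between the cations in both samples. In replicate 1 the K+ share was above the Li+ share at 11 of 14 sites, and in replicate 2 at 2 of 13, with 9 lower and 2 without a stop in either cation. The whole set of sites moved likewise: the median log2 odds ratio of K+ over Li+ was 0.57 in replicate 1 and -0.22 in replicate 2, over 4456 and 3056 sites with 20 reads in both.

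Peg10 site C showed the split most plainly. In replicate 1 its share was 7.38% in K+ (exact 95% interval 6.66% to 8.14%) and 2.44% in Li+ (2.15% to 2.76%), and in replicate 2 it was 4.66% in K+ (3.66% to 5.83%) and 7.50% in Li+ (6.11% to 9.09%). The K+ share was thus 3.02 times the Li+ share in replicate 1 and 0.622 times in replicate 2. Fisher's exact test, two-sided and adjusted over all sites of a sample, gave 1.51e-40 in replicate 1 and 0.5 in replicate 2. At site A the shares were 3.20% in K+ and 1.64% in Li+ in replicate 1, and 1.85% and 2.37% in replicate 2. At site B they were 1.60% and 0.977% in replicate 1, and 1.45% and 0.685% in replicate 2, the site of Peg10 with K+ above Li+ in both samples.

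Peg3 site E had 4.16% in K+ and 4.75% in Li+ in replicate 1, and 3.96% and 5.05% in replicate 2, so K+ lay below Li+ in both. Peg3 site D had 7.52% and 4.99%, and 3.33% and 3.71%. Nnat site A had 22.0% in K+ and 22.6% in Li+ in replicate 1, and 7.02% and 10.5% in replicate 2. Nnat site B had 12.3% and 11.3%, and 6.25% and 11.7%. Mirg site B had 11.1% and 6.52%, and 6.32% and 9.58%.

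By Fisher's exact test K+ was higher at 3 of the 14 sites in replicate 1, all of them in Peg10 and overlapping (background 3.48% of 5366 sites), and at 0 of 13 in replicate 2 (0.129% of 4652). Li+ was higher at none in either (background 0.0186% and 0.0645%). In replicate 1 Peg10 sites A, B and C had 17499, 15047 and 15083 reads of both cations, and this test calls smaller differences where reads are many. Their log2 odds ratios were 0.99, 0.73 and 1.67, against the median of 0.57 over sites with 20 reads in both. Over both samples limma called 0 of 11 member sites and 0 of 3045 sites (0 of the 11 and 177 of 3045 at an unadjusted p under 0.05). The ratio of K+ to Li+ odds was 1.46 at Peg10 site C (95% interval 0.540 to 3.93), 0.826 at Peg3 site E (0.374 to 1.83), 0.822 at Nnat site B (0.391 to 1.73) and 1.18 at Mirg site B (0.546 to 2.54). Within the other days the samples went the same way at Peg10 site C. Its log2 odds ratio of K+ over Li+ was -1.36 and -0.51 on day 0 (adjusted p = 1.0 in both by Fisher's exact test), and 3.20 and 2.23 on day 3 (6.61e-06 and 1.0). In day 3 replicate 2 site C had 5 stops in 230 K+ reads and 0 in 96 Li+ reads, so that value comes in part from the pseudocount of 0.5. Day 0 replicate 2 had 1 K+ and 2 Li+ stops there. Of the overlapping sites, A had -1.1 and 1.01 on day 0 and 2.16 and 1.73 on day 3. Site B had -1.17 and 0.07 on day 0 and 0.68 and -1.09 on day 3. All sites together had a median log2 odds ratio of -0.28 and -0.49 on day 0, and of 1.33 and 0.25 on day 3. By Fisher's exact test K+ was higher at 2 of 6 member sites in day 3 replicate 1, Peg10 sites A and C (background 7.72%), and at 0 of 6 in replicate 2 (0.247%), 0 of 5 in day 0 replicate 1 (0.153%) and 0 of 4 in day 0 replicate 2 (0.127%). Li+ was higher at no member site in these 4 samples, against backgrounds of 0.0787%, 0.123%, 0.23% and 0.424% in the same order.

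In the libraries named in vitro K+ stops were frequent at every member. The K+ share exceeded the Li+ share at all 14 sites in both replicates, as it did at all 5538 sites of the series, and Fisher's exact test called all 14 in both (background 99.6% and 97.6%). Since K+ exceeds Li+ at every listed site, the in vitro values are given as a description. K+ shares ran from 17.3% to 87.2% in replicate 1 and from 14% to 87.8% in replicate 2, around medians of 41.3% and 42.2%. Over all sites with 20 reads the medians were 47.6% and 44.8%.

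Peg3 site A, a canonical motif, had the highest in vitro share, 87.2% and 87.8% in K+, against 6.67% and 5.88% in day 7 cells, where 15 and 17 K+ reads lay over it. Peg10 site C had 72.7% and 73.8% in vitro, against 7.38% and 4.66% in day 7 cells. Peg10 site A had 54.6% and 59.8% in vitro, against 3.20% and 1.85%, and site B had 17.3% and 15.5%, against 1.60% and 1.45%. The order of the 3 overlapping Peg10 motifs in K+ was C, A, B in both in vitro libraries and in both day 7 libraries. In Li+ the order was also C, A, B in both replicates, in vitro and in day 7 cells, with site C at 17.8% and 16.9% in vitro.

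Nnat site A reached 73.6% and 80.2% in vitro, against 22.0% and 7.02% in day 7 cells, while site B, with the same start and 1 more G-run, had 20.7% and 22.4%, against 12.3% and 6.25%. Nnat site B is also classed as canonical and had the smallest ratio of K+ to Li+ shares of the members in vitro, 2.08 and 3.61. Peg3 site E had 17.8% and 14%, against 4.16% and 3.96%, and Mirg site B had 46.3% and 48.3%, against 11.1% and 6.32%.

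The K+ over Li+ odds ratio was higher in vitro than in day 7 cells at 10 of the 11 member sites tested, against a background of 77.3% of 2648 sites, and lower at none. The members' share is thus near that of all sites of the series, and any choice of sites by in vitro stops would fix this direction. The difference was largest at Peg10 site A, 4.78 ± 0.90 (log2, SE; limma adjusted p = 0.000469), and was 3.16 ± 0.71 at Peg10 site C (0.00155). The smallest called was at Nnat site B, 1.86 ± 0.61 (0.0124). Peg10 site B, at 1.95 ± 1.04, did not pass (0.0886). The members' median was 2.96, against 3.36 over all sites.

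**Figure D3:**
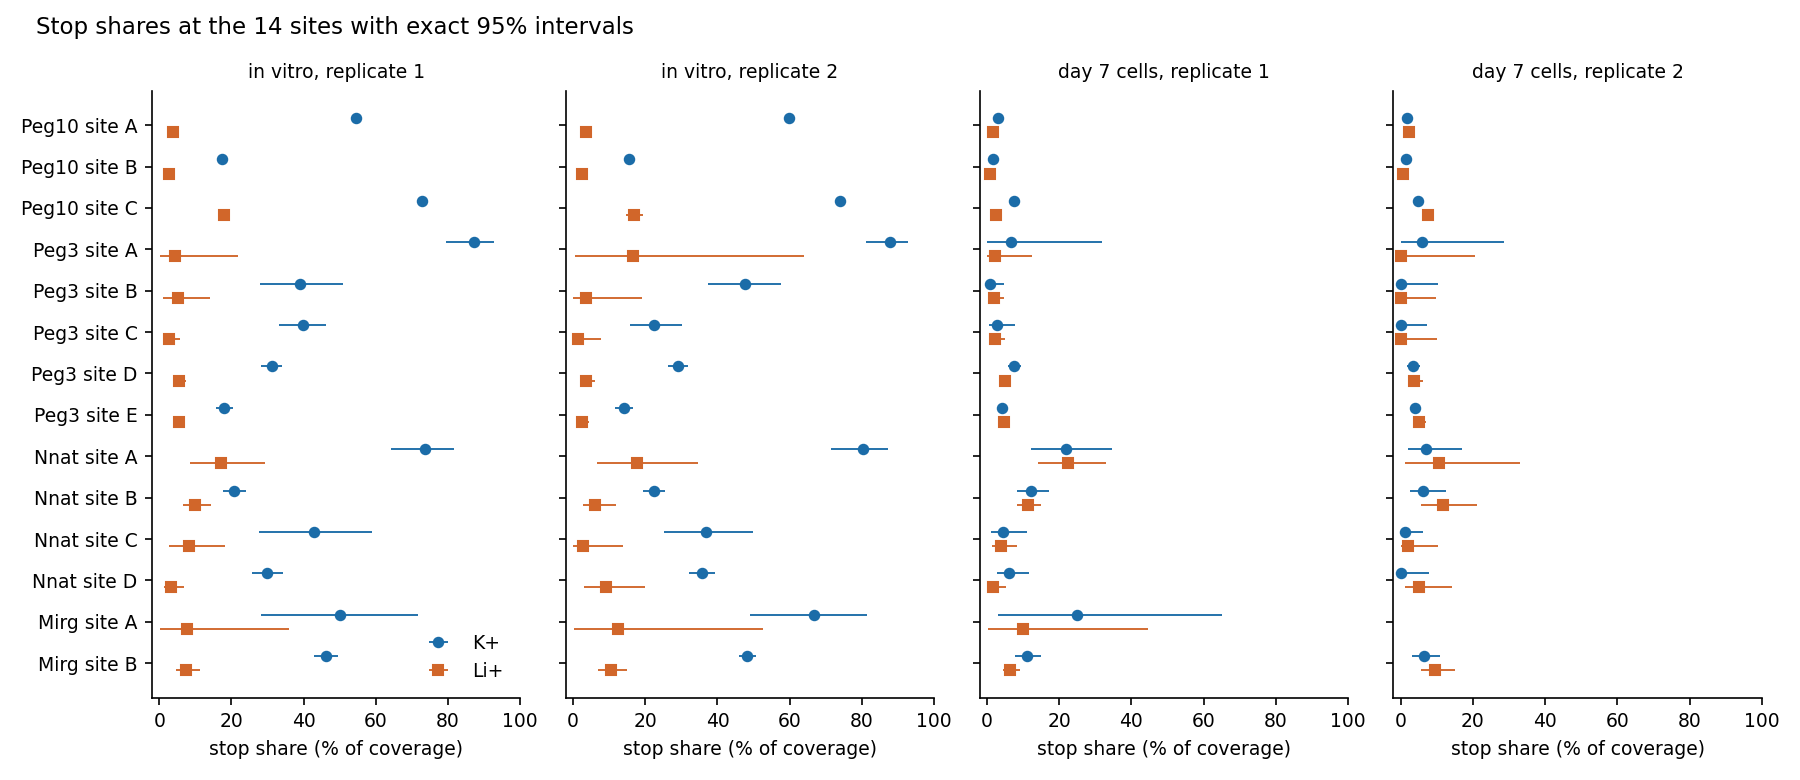
Stop shares in percent of coverage at the 14 sites, in K+ and Li+, with exact 95% intervals that cover counting error only, in 4 panels for the in vitro and day 7 libraries. K+ lies right of Li+ at each site in vitro, while in day 7 cells the cations lie close together, and Mirg site A has no listed reads in day 7 replicate 2.

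**Figure D4:**
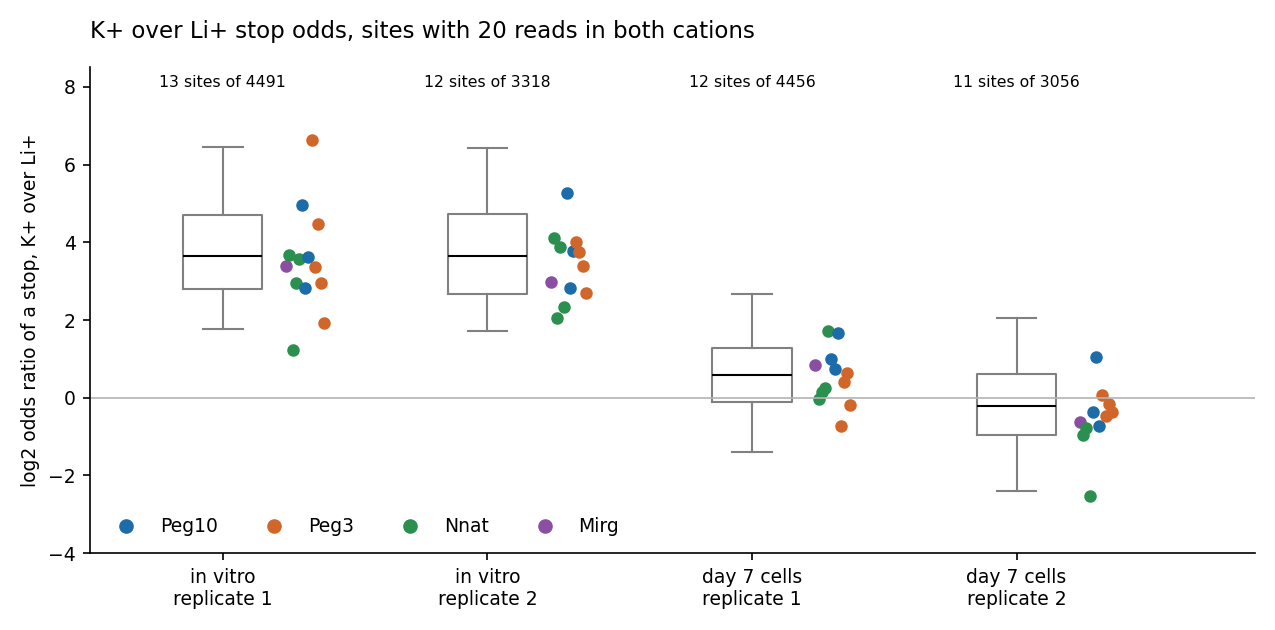
Log2 odds ratio of a stop in K+ over Li+ at sites with 20 reads in both cations, with boxes for the interquartile range of all sites, whiskers at their 5th and 95th percentiles and coloured points for the members. The boxes have medians of 3.65 and 3.64 in vitro and of 0.57 and -0.22 in day 7 cells, and the members follow the box of their library.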

How the data were processed

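cutadapt, STAR and SAMtools, without versions, and GRCm38.p6/mm10 are named in the submitters' processing notes. The sources used here do not give strand, multiple matches or counting rules. The deposited tables hold whole-number read counts of K+ and Li+ coverage and stops per site, without normalisation per the file headers. Motif starts, deposited counting from 0, are given from 1. In 2 records missing values were taken as 0.

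Members and lists were chosen with earlier results of these data known. Member sites that passed a test were described in full, and at most 8 other imprinted genes that passed the reads test were named. Stops and reads were scaled by trimmed mean of M values and fitted over all 6 samples in cells with limma-voom (limma 3.58.1, R 4.3.3), after a filter of 10 counts at the median library in 2 samples and 15 in all. Stop odds (pseudocount 0.5, 20 reads per library) were fitted with limma under beta-binomial weights and a trended prior. The weights were pooled over groups, or taken per group for in vitro against day 7. The call threshold was an adjusted p of 0.05 (Benjamini-Hochberg over all features). Fisher's and Clopper-Pearson methods (95%) used SciPy 1.17.1. Fisher's p-values, exact and counting intervals and floors cover counting error only, not the spread between samples.

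2 choices were changed after counts of the real data were seen. Scaling first used all sites. It was moved to the filtered sites after comparison with an earlier analysis of these data, whose counts it then matched more closely. The odds tests first used own-group weights and a constant prior, and 4 forms were then compared on simulated data. The other forms were kept as alternatives.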

Additional observations from a re-analysis of the deposited data

Results flagged for a closer look

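At 10 member sites the K+ over Li+ odds ratio differed between the in vitro and the day 7 libraries by a test of the difference itself (limma interaction of cation and preparation, adjusted p under 0.05). Of all 2648 sites tested, 77.3% were called the same way, and K+ exceeds Li+ in vitro at every listed site, so the calls are not particular to the members. The differences on the log2 scale were 4.78 at Peg10 site A and 3.16 at Peg10 site C. They were 4.22, 4.13, 2.88 and 2.53 at Peg3 sites B, C, D and E. They were 1.86, 3.64 and 2.94 at Nnat sites B, C and D, and 2.96 at Mirg site B. The log2 odds ratio of K+ over Li+ in day 7 cells was above 0 in replicate 1 and below 0 in replicate 2 at 8 of these 10 sites, for example 1.71 and -2.53 at Nnat site D. It was -0.20 and -0.37 at Peg3 site E and -0.73 and 0.08 at Peg3 site B. Peg3 sites B and C had no stop in either cation in day 7 replicate 2, so their values there come from the pseudocount.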

How the results depend on the processing

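Of the counts of member calls, those for stops on day 7 against day 0 and for reads on each pair of days were within 1.5 times the reported count under every alternative of scaling, filter and design; with 1 sample left out they ran from 1 to 3 and, for reads, from 1 to 3 on day 7 against day 0, 0 to 1 on day 3 against day 0 and 0 to 1 on day 7 against day 3. Stops on day 3 against day 0 gave 2 calls with total counts alone. Stops on day 7 against day 3 gave 4 with median-ratio factors, 7 with no filter, 5 with scaling over all sites (the first setting; the reported scaling over filtered sites was chosen after seeing the data) and 0 to 2 with 1 sample left out. For K+ against Li+ in vitro against day 7 there were 6 calls with 50 reads in every library, where 7 sites could be tested. With total counts alone 79 sites rose and 5 fell in stops on day 7 against day 0 (reported 33 and 20), with scaling over all sites 55 and 11, with no filter 132 and 22 and with those days alone 62 and 26; the median change was 1.19, 0.63, 0.06 and 0.15 in place of 0.16. No form of the odds weights (the reported ones were chosen after seeing the data) gave a member call on K+ against Li+ in day 7 cells or on the share between days (0 calls), and they gave 10 or 11 in vitro against day 7. Signs turned at sites that passed neither way: Peg3 site D stops on day 3 against day 0 (-0.00 to 0.83 with 1 sample left out), Mirg site B stops on day 7 against day 3 (0.04 with median-ratio factors, 0.39 with no filter and 0.39 with scaling over all sites), reads on day 3 against day 0 of Mirg (-0.12 to 0.91 with 1 sample left out) and of Nnat (-0.11 to 4.45), reads of Mirg on day 7 against day 3 (-0.07 to 0.4), Peg3 site C in K+ against Li+ (0.14 with a pseudocount of 1, 0.15 with the replicate block), and the share of Peg10 site B (-0.21 with a pseudocount of 1) and site A (-0.96 to 0.89 with 1 sample left out). The cause was not tested.

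Same-numbered samples share only a number: their deviations correlated by 0.275, -0.037 and 0.035 for days 3 and 0, 7 and 0, and 7 and 3. With the replicate block the member counts were the same, 5, 0 and 2 for stops, 3, 0 and 3 for reads, and 0, 10 and 0 for the 3 odds tests, and over all sites the K+ share test on day 7 against day 0 gave 33 higher and 1 lower in place of 1 and 0. The odds tests within day 7 with 1 sample left out have no residual spread and gave values with no test. The planned count test was not run, since the records could not be entered as counts. Depth limits Nnat, Mirg site A and Peg3 sites A, B and C, which had few or no listed reads before day 7.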
